A study of Mus musculus with 47 samples.

Results

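The 10 genes described here belong to the temperature response and were followed through the day in the cerebral cortex of mice fed control chow or the microglia-depleting diet PLX5622. They were chosen by name: the cold-inducible RNA-binding protein genes Rbm3 and Cirbp, the chaperone genes Hspa1a, Hspa1b, Hspa8, Hsph1, Hsp90aa1, Dnajb1 and Hspb1, and Hsf1, the gene of the main heat-shock transcription factor. These 10 were matched by symbol to Ensembl gene identifiers through GENCODE release M21, among the 54281 genes of the deposited expression table. Rbm3 was in addition chosen on its readout, since its strong rhythm in control mice and its higher level with PLX5622 were already known from these data. Its values in those comparisons are therefore given as a description with no test, and the counts there cover the 9 other genes.

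The samples were bulk cortex, microdissected after perfusion from male C57BL/6J mice of about 3 months, each contributing 1 library. All mice lived in a 12 h light and 12 h dark cycle and were killed with CO2 at Zeitgeber time (ZT) 2, 6, 10, 14, 18 or 22, counted in hours from lights-on, so that ZT14, ZT18 and ZT22 lay in the dark. For 10 days they ate either control chow or chow with PLX5622 at 1200 ppm, an inhibitor of CSF1R, the receptor on which microglia depend for survival. The diet acts on the whole body and not on microglia of the cortex alone. Each of the 12 groups held 4 mice, except control ZT14 with 3, which gave 23 control and 24 PLX5622 libraries. The mice were housed 4 to a cage, and whether cage mates shared a group is not given in the sources used here. A cage and a group could thus be the same mice, in which case their effects cannot be told apart. The p-values measure the spread between these mice. The sources used here do not state how harvest sessions were divided, so effects of session and of time of day cannot be told apart.

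Libraries held 16597987 to 27626161 gene counts, with medians of 18314954 in control and 21476967.5 in PLX5622 mice. The summed level of 12 microglial markers was 473 to 729 TPM (a level per transcript length, scaled to the same total in each library) in control mice and 21.6 to 115 TPM in PLX5622 mice, and 12 of 12 were called lower with the diet. The 5 neuronal markers summed to 2017 to 3486 TPM and 2122 to 3337 TPM, and no marker of any cell type had a median of 0. In such bulk tissue, fewer cells of a type and less RNA per cell cannot be told apart.

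RBM3 and CIRBP are small glycine-rich RNA-binding proteins whose transcripts become more abundant when cells or animals are mildly cooled and less abundant when they are warmed. Heat-shock proteins are chaperones that keep other proteins folded, and the inducible ones are transcribed when HSF1 forms trimers and binds arrays of the unit GAA in alternating orientation, the heat-shock element. Mice are active and warmest in the dark phase, and cold-inducible and heat-shock transcripts have been used as readouts of their daily temperature cycle. Brain temperature was not among the measurements analysed here.

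Letters of the heat-shock element and of a cold-response element were searched by pattern in the promoters that the RefSeq table holds. These were the 250 bases before the transcript start of Cirbp, Hspa1a, Hspa1b, Hsph1, Dnajb1 and Hspb1, 6 of the 10 genes. The printed stretches are those around a match, and none was taken from a list of binding sites. Rbm3, Hspa8, Hsp90aa1 and Hsf1 had no entry. All sequences are from RefSeq on GRCm38.p6, printed 5′ to 3′ on the strand of the gene. Capitals mark a pair of facing heat-shock units, GAANNTTC or TTCNNGAA, each of which reads the same on both strands. In Cirbp, capitals mark the letters TCCCCGCC, known from work on that gene as a mild-cold response element.
Hspa1a, chr17:34972233-34972280, minus strand: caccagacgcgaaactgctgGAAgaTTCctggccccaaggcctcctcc
Hspa1b, chr17:34959315-34959362, minus strand: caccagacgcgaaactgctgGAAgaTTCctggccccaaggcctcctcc
Hsph1, chr5:149636354-149636377, minus strand: tagaatctTTCtcGAAggctcgag
Hspb1, chr5:135887782-135887849, plus strand: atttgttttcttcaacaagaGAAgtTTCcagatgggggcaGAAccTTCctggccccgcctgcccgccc
Cirbp, chr10:80167589-80167609, plus strand: ctgTCCCCGCCtcctagtcgc

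The pair began 104 bases before the transcript start in both Hspa1a and Hspa1b, whose printed stretches were identical, and 33 bases before the first of the 2 starts of Hsph1. Hspb1 held 2 pairs, beginning 117 and 97 bases before its start. The 2 windows of Cirbp and the 2 of Dnajb1 held none. Among all 32851 promoter windows of 250 bases in the table, 12.8% held at least 1 pair and 1.46% held 2 or more. A row of 3 alternating units was found in none of the windows of these genes and in 0.466% of all windows. TCCCCGCC began 247 bases before the first of the 2 Cirbp starts, and it lay on the opposite strand 137 bases before the starts of Hspa1a and Hspa1b. On either strand it was found in 4.64% of all windows. The printed stretches of Hspa1a, Hspa1b and Hspb1 lie upstream of the genes, that of Hsph1 overlaps the first bases of the GENCODE gene, and that of Cirbp lies within the GENCODE gene, whose annotated start is upstream of both RefSeq starts. A match describes letters only, and no binding was measured here.

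Rbm3, on the X chromosome at 8138975 to 8145880 (GRCm38, minus strand), had 136 ± 33.8 TPM (SD, n = 23) in control mice. Whether it stood above Cirbp depended on the table, with 146 against 91.5 TPM on average over the 47 libraries but 18.3 against 26.0 FPKM, a per-length level computed from the deposited counts. The strand used in counting is not stated, so reads of the antisense gene Rbm3os, listed at no more than 1.17 TPM, cannot be told apart from those of Rbm3. The 4 control libraries of ZT2 held 123, 91.4, 81.1 and 99.4 TPM. Those of ZT6 held 125, 132, 149 and 141 TPM, and those of ZT10 held 156, 181, 180.3 and 201 TPM. Every library of ZT10 thus stood above every library of ZT2 and ZT6. The 3 libraries of ZT14 held 170.3, 176 and 175 TPM, the tightest group of the day. At ZT18 the values were 129.7, 148, 128 and 129.8 TPM, and at ZT22 they were 107, 96.4, 91.2 and 108 TPM. The group means ran in the order ZT10, ZT14, ZT6, ZT18, ZT22 and ZT2, from 179 ± 18.3 down to 98.6 ± 17.6 TPM, a 1.82-fold span. The neighbouring pairs ZT10 and ZT14, ZT6 and ZT18, and ZT22 and ZT2 overlapped. The share of all genes whose groups stand apart was not computed, so overlap, here and below, only describes these libraries.

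In PLX5622 mice, which had no part in choosing Rbm3 for its rhythm, the course was close to that of control mice. At ZT2 its level was 96.6, 104, 109 and 109 TPM, and at ZT6 it was 147, 163, 159 and 156 TPM. At ZT10 the 4 libraries held 212, 183, 209 and 204 TPM, and at ZT14 they held 196, 195, 209 and 212 TPM. The libraries of these 2 times overlapped with each other and stood above all others of the diet. At ZT18 and ZT22 the level had come down to 139, 134, 147 and 152 TPM, and to 108, 133, 143 and 131 TPM. The highest mean was 203 ± 8.82 TPM at ZT14 and the lowest 105 ± 5.92 TPM at ZT2, a 1.94-fold span. Rbm3 was called rhythmic in PLX5622 mice by JTK_CYCLE, a rank test for a 24 h wave (adjusted p = 0.0139), with its peak at ZT10, and by a 24 h cosine in limma (adjusted p = 4.74e-10). JTK_CYCLE used the PLX5622 libraries alone, whereas limma estimated the spread from the 47 libraries of both diets. The cosine placed the peak at ZT 11.9 ± 0.33 (SE) in control and ZT 12.1 ± 0.34 in PLX5622 mice, with amplitudes of 0.48 ± 0.042 and 0.46 ± 0.041 on the log2(TPM + 1) scale. The level therefore stood highest on either side of lights-off and lowest on either side of lights-on. The mean of the dark times was accordingly near that of the light times, with a difference of -0.01 in control mice and of 0.06 in PLX5622 mice (limma, adjusted p = 0.735).

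**Figure D1:**
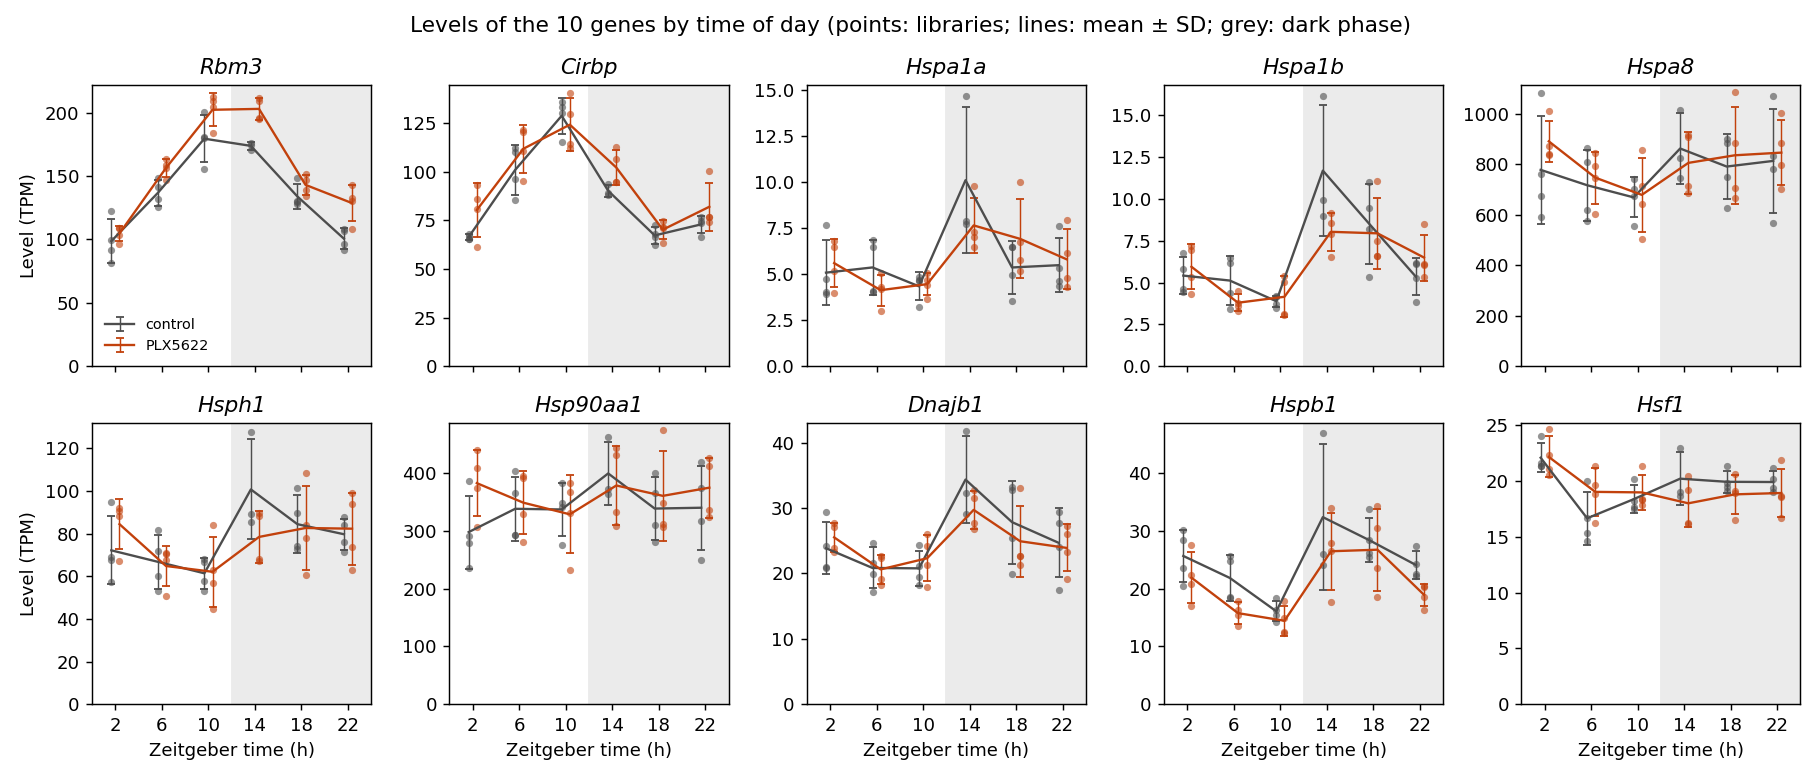
Level of each of the 10 genes in TPM (vertical axis, from 0) against Zeitgeber time in hours; points are single libraries, lines join group means with SD bars, colours mark the diet and grey marks the dark phase. Rbm3 and Cirbp are highest at ZT10 or ZT14, and in control mice Hspa1a, Hspa1b, Hspa8, Hsph1, Hsp90aa1, Dnajb1 and Hspb1 have their highest mean at ZT14. In PLX5622 mice the highest mean is at ZT14 for Hspa1a, Hspa1b and Dnajb1, at ZT18 for Hspb1, and at ZT2 for Hspa8, Hsph1 and Hsp90aa1.

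Cirbp, on chromosome 10 at 80165985 to 80172786 (plus strand), had a higher mean over the light times than over the dark times in both diets. Not every light time was high, and in both diets all libraries of ZT14 stood above all of ZT2. The 4 control libraries of ZT2 held 65.3, 65.5, 68.1 and 67.0 TPM. At ZT6 they held 85.4, 96.1, 112 and 110.2 TPM, and at ZT10 they held 115, 130.5, 136 and 134 TPM. The 4 values of ZT10 lay above all others of the control mice. At ZT14 the values were already 89.2, 87.9 and 93.7 TPM, below every library of ZT10. At ZT18 they were 72.6, 62.2, 66.5 and 67.8 TPM, and at ZT22 they were 74.7, 73.9, 66.4 and 76.9 TPM. The highest mean, 129 ± 9.36 TPM at ZT10, was 1.94-fold the lowest, 66.5 ± 1.31 TPM at ZT2, and ZT22, ZT18 and ZT2 overlapped with their neighbours in the order, as did ZT6 and ZT14.

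In PLX5622 mice Cirbp stood at 61.4, 80.8, 93.4 and 85.9 TPM at ZT2 and at 95.1, 120.5, 121 and 111 TPM at ZT6. It reached 141, 112, 114 and 129.8 TPM at ZT10, and held 94.6, 94.9, 113 and 107 TPM at ZT14. The SD was larger than in control mice at 5 of the 6 times, and all 5 neighbouring pairs in the order of means overlapped. At ZT18 the libraries held 74.7, 63.6, 71.3 and 71.5 TPM, the lowest group, and at ZT22 they held 74.3, 76.9, 100.4 and 76.7 TPM. The mean of ZT10 was 1.77-fold that of ZT18.

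Cirbp was called lower in the dark than in the light in both diets. The difference between the mean of ZT14, ZT18 and ZT22 and that of ZT2, ZT6 and ZT10 was -0.32 ± 0.063 (SE) on the log2(TPM + 1) scale in control mice (limma, adjusted p = 0.00815) and -0.30 ± 0.061 in PLX5622 mice (adjusted p = 0.0119). The call held in 47 of 47 fits that each left out 1 library. JTK_CYCLE called the gene rhythmic in PLX5622 mice (adjusted p = 0.0358, peak ZT10) and not in control mice (adjusted p = 0.0833), although the cosine was called in both (limma, adjusted p = 5.63e-06 and 9.14e-05). The JTK_CYCLE call in PLX5622 mice was lost in 12 of the 24 fits without 1 PLX5622 library, namely without any library of ZT10 or ZT14, ZT2 replicate 3 or 4, or ZT6 replicate 1 or 4, with a highest adjusted p of 0.0871. The fitted peak lay at ZT 9.73 ± 0.49 in control and ZT 9.11 ± 0.55 in PLX5622 mice, before that of Rbm3 in both diets, and the amplitudes were 0.44 ± 0.055 and 0.38 ± 0.055. From ZT10 to ZT14 the mean level of Cirbp changed to 0.700 of its value in control mice with no overlap between the groups, whereas Rbm3 stayed at 0.968 of its value with overlap.

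Hspa1a and Hspa1b, neighbouring genes on chromosome 17 (34969190 to 34972156 and 34956436 to 34959238, both on the minus strand), encode the stress-inducible HSP70 chaperone. Both were near the lower end of the levels, at 5.76 and 6.25 TPM on average over the 47 libraries. Their transcripts share 63.8% of the 31-base words of Hspa1a and 67.6% of those of Hspa1b, so the counting could split reads between them and their separate levels are uncertain. Gm20481, which overlaps Hspa1a, was listed at no more than 1.11 TPM. Hspa1b in control mice held 4.44, 6.77, 4.63 and 5.82 TPM at ZT2, then 4.35, 3.44, 6.49 and 6.20 TPM at ZT6. At ZT10 its 4 libraries lay close together at 3.47, 4.12, 3.75 and 4.19 TPM. All 3 libraries of ZT14 were above these, at 8.97, 9.97 and 16.2 TPM, and the mean was 3.01-fold that of 4 h earlier. The level was still 5.32, 11, 8.23 and 9.47 TPM at ZT18, and at ZT22 it was back to 3.82, 5.30, 6.16 and 6.13 TPM.

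In PLX5622 mice Hspa1b went from 4.34, 5.33, 6.95 and 7.17 TPM at ZT2 to 3.30, 3.60, 4.49 and 3.78 TPM at ZT6 and 5.01, 3.12, 3.08 and 5.40 TPM at ZT10. At ZT14 it was 8.54, 6.55, 7.88 and 9.18 TPM, each above every library of ZT10, and the mean was 1.94-fold higher. ZT18 followed with 7.48, 6.60, 6.61 and 11.1 TPM and ZT22 with 5.35, 6.10, 6.03 and 8.50 TPM. Hspa1b was called higher in the dark in both diets, by 0.65 ± 0.118 in control mice (limma, adjusted p = 0.00238) and 0.61 ± 0.115 in PLX5622 mice (adjusted p = 0.00613), and in 47 of 47 fits without 1 library. Of the 9 genes tested in control mice and the 10 in PLX5622 mice, Cirbp and Hspa1b were the 2 called by this contrast in each diet. Among all 14580 genes the shares called were 0.302% in control and 0.343% in PLX5622 mice.

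Hspa1a followed Hspa1b with a smaller difference. In control mice its level was 3.19, 4.82, 4.68 and 4.64 TPM at ZT10 and 7.74, 7.88 and 14.7 TPM at ZT14, with no overlap and a 2.33-fold higher mean. In PLX5622 mice it was 5.05, 3.66, 4.41 and 4.69 TPM at ZT10 and 7.03, 6.46, 7.30 and 9.80 TPM at ZT14, a 1.72-fold step, again with no overlap. The other 4 times had means of 5.08 to 5.48 TPM in control and of 4.13 to 6.91 TPM in PLX5622 mice. Its dark minus light difference was 0.37 ± 0.128 in control mice (limma, adjusted p = 0.265) and 0.43 ± 0.125 in PLX5622 mice (adjusted p = 0.133), where edgeR and DESeq2 called it (adjusted p = 0.0293 and 0.0105). When the TPM of both genes was added before the fit, a choice made after seeing the data that removes the split of reads, the difference was 0.56 ± 0.127 (adjusted p = 0.0305) in control and 0.57 ± 0.124 (adjusted p = 0.0253) in PLX5622 mice. The summed level was 8.22 TPM at ZT10 and 21.8 TPM at ZT14 in control mice, and 8.60 and 15.7 TPM in PLX5622 mice.

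Hspa8, the constitutive HSP70 that works in every cell and uncoats clathrin vesicles at synapses, was the most abundant of the 10 (chromosome 9, 40800984 to 40810087, plus strand). Its mean was 785 TPM over all libraries. Control libraries held 557, 676, 704 and 740.1 TPM at ZT10 and 746, 826 and 1017 TPM at ZT14, so that the groups did not overlap, and the higher mean was 1.29-fold the lower. In PLX5622 mice the same times overlapped, at 855, 506, 642 and 713 TPM and at 686, 714, 907 and 916 TPM. The highest mean of these mice was 891 TPM at ZT2, in the light. Hspa8 shared none of the 31-base words of Hspa1a. Its dark minus light difference of 0.19 in control and 0.11 in PLX5622 mice was not called (limma, adjusted p = 0.634 and 0.746).

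Hsph1 encodes HSP110, a nucleotide exchange factor that resets HSP70 after each round of folding, and Dnajb1 encodes an HSP40 that delivers clients to HSP70. Hsph1 (chromosome 5, 149614287 to 149636376, minus strand) held 52.9, 68.1, 57.8 and 66.7 TPM at ZT10 and 89.0, 85.4 and 128 TPM at ZT14 in control mice. Dnajb1 (chromosome 8, 83608193 to 83612653, plus strand) held 18.2, 19.4, 21.1 and 24.3 TPM at ZT10 and 29.1, 32.2 and 41.8 TPM at ZT14 in these mice. In both genes all libraries of ZT14 stood above all of ZT10, and the means differed 1.64-fold and 1.65-fold. The 2 genes covaried over the 47 libraries (Pearson r = 0.82), so these separations are not independent of each other. With PLX5622, Hsph1 overlapped between the 2 times, at 83.8, 44.7, 56.9 and 63.0 TPM and at 68.2, 67.3, 89.7 and 88.4 TPM. Dnajb1 did not overlap there either, with 26.0, 17.9, 21.3 and 24.2 TPM at ZT10 and 27.8, 26.8, 31.6 and 32.8 TPM at ZT14. Over the 6 times of PLX5622 mice, Hsph1 had its highest mean at ZT2, at 84.4 TPM. The dark minus light difference in control mice was 0.40 ± 0.109 for Hsph1 (limma, adjusted p = 0.115) and 0.37 ± 0.095 for Dnajb1 (adjusted p = 0.0786), which edgeR and DESeq2 on the counts did call (adjusted p = 0.00250 and 0.000257). In PLX5622 mice the values were 0.21 (adjusted p = 0.472) and 0.18 (adjusted p = 0.475).

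Hspb1 encodes the small chaperone HSP27, which holds unfolded proteins without using ATP (chromosome 5, 135887919 to 135889563, plus strand). At ZT10 its control libraries held 14.2, 18.4, 15.4 and 16.4 TPM, and at ZT14 they held 26.0, 24.1 and 46.9 TPM, a 2.01-fold higher mean without overlap. In PLX5622 mice the values were 17.9, 14.9, 12.4 and 12.5 TPM at ZT10 and 33.8, 17.6, 27.8 and 26.5 TPM at ZT14, where 1 library of ZT14 fell within the range of ZT10. The difference between dark and light was 0.40 ± 0.110 in control mice (limma, adjusted p = 0.115) and 0.44 ± 0.107 in PLX5622 mice (adjusted p = 0.0535), short of the threshold of 0.05 in both. That call depended on the tool, with adjusted p = 0.0310 by edgeR and 0.0117 by DESeq2 in PLX5622 mice and 0.0342 by DESeq2 in control mice.

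Hsp90aa1 encodes the inducible HSP90, which holds HSF1 inactive and matures kinases and steroid receptors (chromosome 12, 110690605 to 110702728, minus strand). It varied least of the chaperones in PLX5622 mice, with group means from 329 TPM at ZT10 to 383 TPM at ZT2, a 1.16-fold span. In control mice the means ran from 298 ± 63.1 TPM at ZT2 to 399.6 ± 55.1 TPM at ZT14, and ZT10 and ZT14 overlapped at 275, 349, 341 and 384 TPM and at 364, 372 and 463 TPM. Its dark minus light differences were 0.15 and 0.07 (limma, adjusted p = 0.712 and 0.832). Hsf1 (chromosome 15, 76477422 to 76501913, plus strand) had 19.4 TPM on average and no step at lights-off, with 17.6, 18.2, 20.2 and 17.5 TPM at ZT10 and 19.0, 22.9 and 18.7 TPM at ZT14 in control mice. Its highest mean was at ZT2 in both diets, 22.1 ± 1.29 and 22.2 ± 1.84 TPM. Its dark minus light difference was 0.08 in control and -0.10 in PLX5622 mice (limma, adjusted p = 0.706 and 0.507). The factor is regulated through trimerisation and phosphorylation, which transcript levels do not show.

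**Figure D2:**
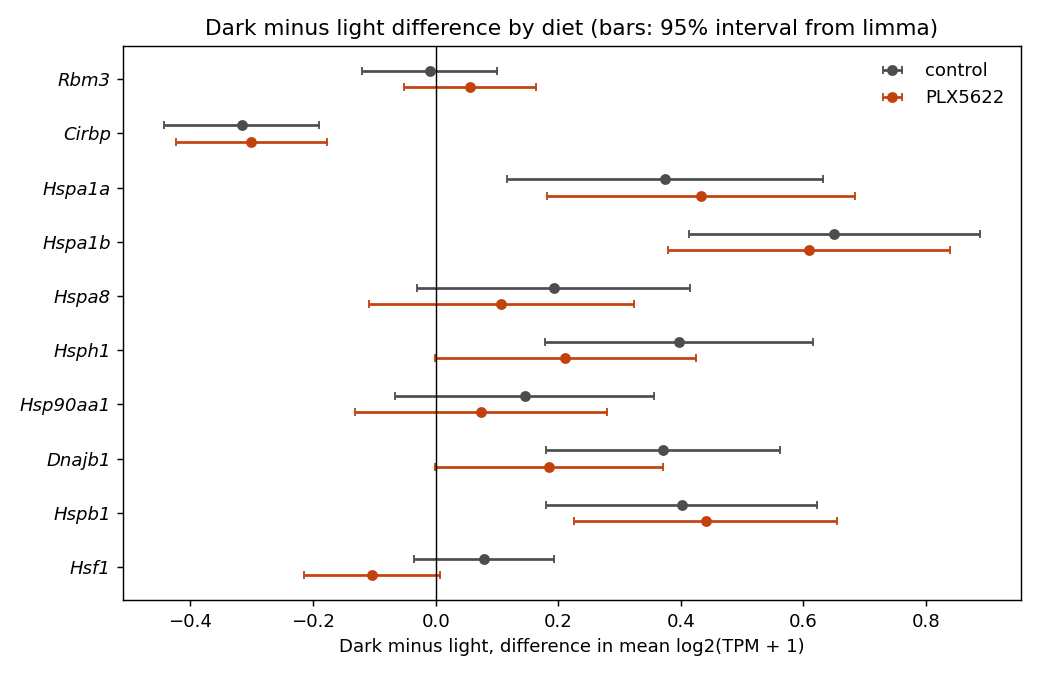
Dark minus light difference in mean log2(TPM + 1) for each gene (horizontal axis; 0 is the vertical line) with its 95% interval from limma, in control and PLX5622 mice. Cirbp lies below 0 in both diets, at -0.32 and -0.30, Hspa1b lies above it at 0.65 and 0.61, and Rbm3 lies near 0.

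Considered together, 8 of the 8 heat-shock genes had a higher mean in the dark in control mice and 7 of 8 in PLX5622 mice, with median differences of 0.372 and 0.198. Over all genes tested the medians were 0.0278 and 0.0228, and 60.6% and 58.3% of genes were higher in the dark. By gene, 1 of the 8 was called in each diet. At an unadjusted p under 0.05 the counts were 5 and 3, and edgeR on the deposited counts called 2 and 3, DESeq2 3 and 3. Over all genes 9.12% and 10.7% had an unadjusted p under 0.05. Of the 14442 genes in the count fits, edgeR called 244 and 288 and DESeq2 313 and 464. Control ZT14 replicate 3 had the highest value of the control mice in Hspa1a, Hspa1b, Hsph1, Hsp90aa1, Dnajb1 and Hspb1. Without that library and PLX5622 ZT18 replicate 4, which had the highest value of the PLX5622 mice in these genes and in Hspa8, a choice made after seeing the data, Cirbp and Hspa1b were still the 2 genes called in each diet. The differences of Hspa1b were then 0.57 (limma, adjusted p = 0.0125) and 0.56 (adjusted p = 0.0115), and those of Cirbp -0.33 (adjusted p = 0.0184) and -0.30 (adjusted p = 0.0278).

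Other transcripts moved in the same direction as the heat-shock genes. The 10 immediate early genes, which neuronal activity induces within minutes, were higher in the dark in 10 of 10 cases in both diets, with medians of 0.798 and 0.401, and their summed level ranged from 83.9 to 422 TPM in the light and from 163 to 697 TPM in the dark in control mice. In PLX5622 mice these ranges were 94.0 to 334 TPM and 134 to 595 TPM. Arc, whose product remodels synapses, was higher in the dark by 1.72 ± 0.288 in control mice (limma, adjusted p = 0.000988), and Nr4a1, an activity-induced nuclear receptor, by 0.87 ± 0.184 (adjusted p = 0.0152). In PLX5622 mice the difference of Arc was 1.04 ± 0.281 (adjusted p = 0.0894), and 0 of the 10 were called by limma, with 3 at an unadjusted p under 0.05 and 1 called by edgeR and by DESeq2. The 5 blood markers were also higher in the dark in 5 of 5 cases in both diets, with medians of 0.607 and 0.326, none of them called. Their sum ranged from 267 to 3034 TPM in the light and from 395 to 1751 TPM in the dark in control mice, and from 193 to 2919 TPM and 282 to 2285 TPM in PLX5622 mice. The part of activity or of remaining blood in the levels of the heat-shock genes was not tested.

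Rhythm was also tested without reference to the light phase. In control mice JTK_CYCLE called 0 of the 9 genes tested, against 0.0754% of all genes. At an unadjusted p under 0.05 were 3 of the 9, against 8.53% of all genes. A cosine in limma called 1, Cirbp, against 0.604% of all genes, while edgeR and DESeq2 on the counts called 3 each, Cirbp, Hspa1b and Dnajb1. Of the 14442 genes in the count fits, edgeR called 582 and DESeq2 818 as rhythmic in control mice. In PLX5622 mice JTK_CYCLE called 2 of 10, Rbm3 and Cirbp, against 0.61% of all genes, and 5 of 10 had an unadjusted p under 0.05, against 11.1%. The limma cosine there called 3 of 10 against 1.45%. These were Rbm3, Cirbp and Hspa1b (adjusted p = 0.0323), whose JTK_CYCLE adjusted p was 0.0594. On the counts edgeR called 4 and DESeq2 6 of the 10, beside 513 and 765 of the 14442 genes. The fitted peak of Hspa1b was at ZT 16.8 ± 0.92 in control and ZT 18.4 ± 0.86 in PLX5622 mice, with amplitudes of 0.43 ± 0.105 and 0.45 ± 0.10. Hspa1a, Hsph1, Dnajb1 and Hspb1 had fitted peaks between ZT 15.4 and ZT 19.5 in control and between ZT 17.1 and ZT 20.9 in PLX5622 mice, with SE of 1.06 to 2.02 h. None of these 4 was called by JTK_CYCLE or the limma cosine, but in PLX5622 mice Hsph1 was called by edgeR (adjusted p = 0.0254) and DESeq2 (adjusted p = 0.00852), and Hspa1a and Hspb1 by DESeq2 (adjusted p = 0.0287 and 0.0420). The peaks of Rbm3 and Cirbp thus fell before or at lights-off, and those of these heat-shock genes in the dark. For Hspa8, Hsp90aa1 and Hsf1 the amplitudes were 0.08 to 0.16 and the peak times carried SE of 1.60 to 3.43 h.

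**Figure D3:**
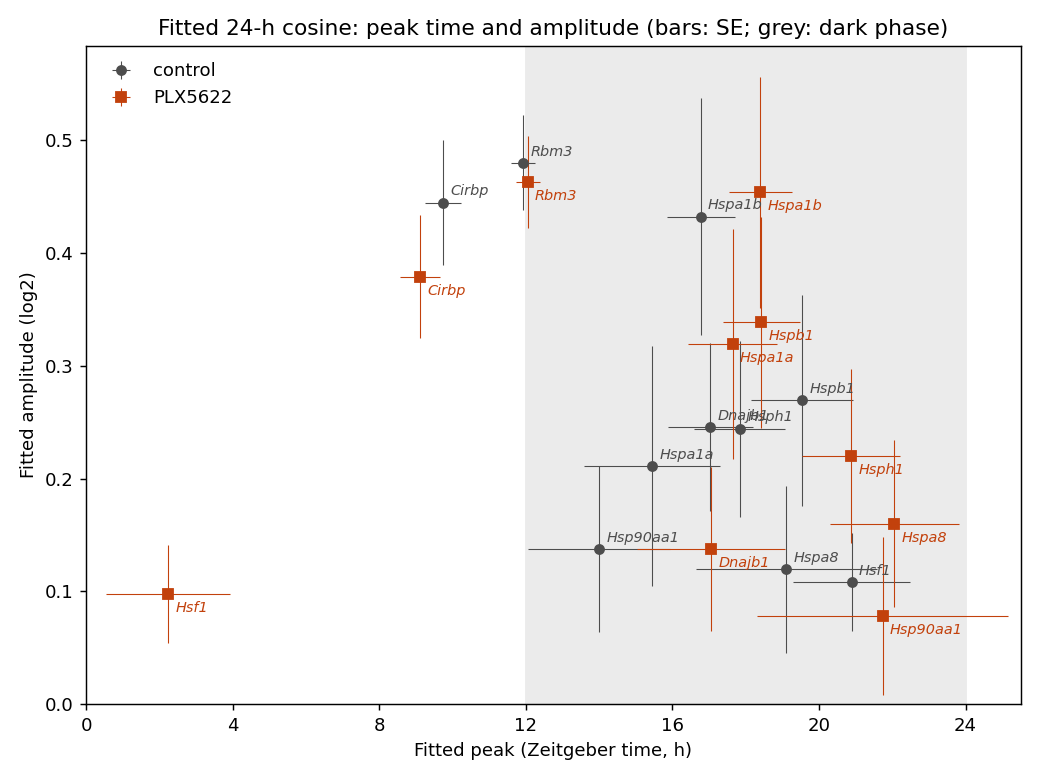
Fitted amplitude on the log2 scale (vertical axis) against fitted peak in Zeitgeber time (horizontal axis) of a 24 h cosine for each gene in each diet, with SE bars and the dark phase in grey. Rbm3 lies at ZT 11.9 and 12.1 and Cirbp at ZT 9.73 and 9.11, while Hspa1b lies at ZT 16.8 and 18.4 with a similar amplitude.

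**Figure D4:**
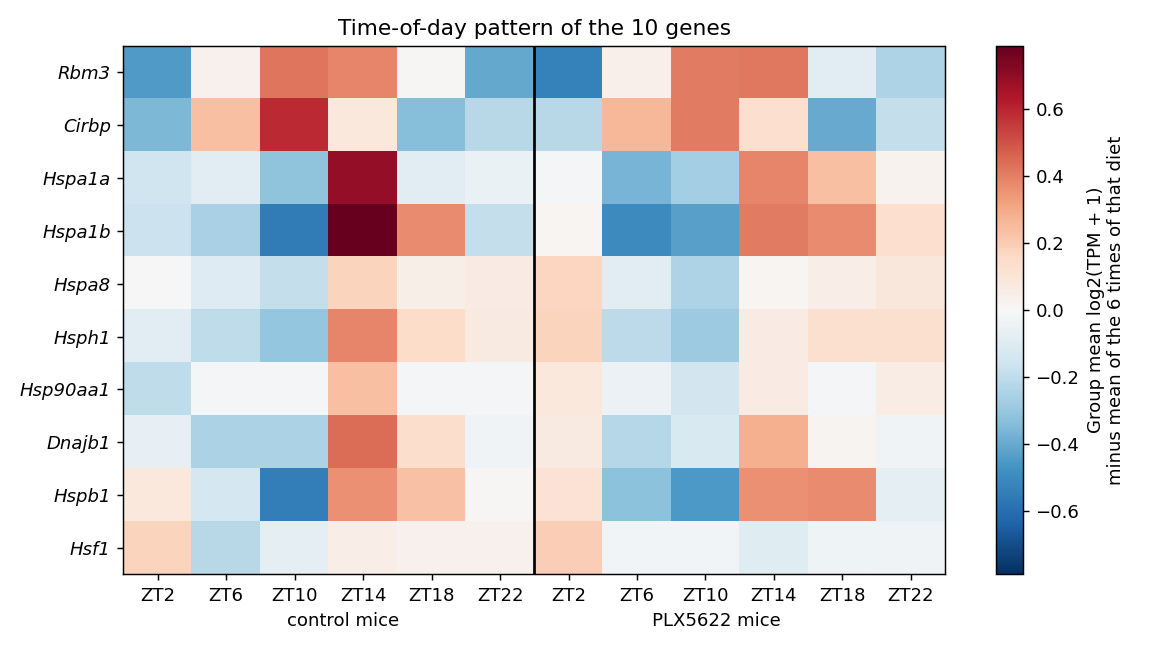
Colour map of the group mean of log2(TPM + 1) minus the mean of the 6 times of that diet, for each gene (rows) and each of the 12 groups (columns, control left and PLX5622 right). Rbm3 is high at both ZT10 and ZT14 and Cirbp is highest at ZT10, and Hspa1a, Hspa1b, Dnajb1 and Hspb1 are low at ZT10 and high at ZT14.

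The next question was whether the diet changed the level of these genes. Rbm3 had a mean of 136 ± 33.8 TPM (SD, n = 23) in control and 156 ± 38.1 TPM (n = 24) in PLX5622 mice, a 1.15-fold difference and 0.19 ± 0.040 (SE) on the log2(TPM + 1) scale with time of day in the fit. Its mean was higher with PLX5622 at 6 of 6 times. At ZT14 every PLX5622 library stood above every control library, at 195 to 212 against 170.3 to 176 TPM. At ZT22 the groups also stood apart, by less than 1 TPM, with a lowest PLX5622 value of 108.3 TPM and a highest control value of 107.8 TPM. Cirbp, the other cold-inducible gene, had means of 87.7 ± 24.1 and 95.2 ± 21.9 TPM, a difference of 0.12 ± 0.055 with a 95% interval of 0.0099 to 0.23 that was not called after adjustment (limma, adjusted p = 0.258). It was higher with PLX5622 at 5 of 6 times, without overlap at ZT14.

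None of the heat-shock genes was called different between diets. The largest difference was that of Hspb1, whose mean was lower with PLX5622 at 6 of 6 times, at 24.4 ± 6.93 TPM in control and 20.7 ± 6.37 TPM in PLX5622 mice (-0.24 ± 0.093, limma, adjusted p = 0.168, 95% interval -0.43 to -0.05). Its groups did not overlap at ZT6, with control libraries at 18.5, 18.4, 24.8 and 25.7 TPM against 17.9, 15.4, 13.4 and 16.3 TPM. They did not overlap at ZT22 either, with 27.4, 22.5, 24.2 and 22.1 TPM against 18.6, 20.3, 20.4 and 16.4 TPM. The call depended on the tool, since DESeq2 on the counts gave Hspb1 an adjusted p of 0.0490 and a limma fit with ZT as a factor 0.0413. The other 7 heat-shock genes differed by -0.05 to 0.09. For Hspa1a the difference was 0.01 (adjusted p = 0.973), with a 95% interval of -0.20 to 0.22. In all, 0 of the 9 genes tested were called by limma and by edgeR and 1 by DESeq2, with 2 at an unadjusted p under 0.05. Among all genes 3.45% were called by limma, 16.2% had an unadjusted p under 0.05, and 64.8% had a higher mean with PLX5622. Of the 14442 genes in the count fits, edgeR called 1022 and DESeq2 1155. The median difference was -0.0119 for the 8 heat-shock genes and 0.0312 for all genes.

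Beside these differences, the microglial markers fell by a median of 3.13 on the log2 scale with PLX5622. Gfap, an astrocyte marker, was called higher with PLX5622 by 0.56 ± 0.087 (limma, adjusted p = 5.49e-06), the 1 called of 5 astrocyte markers. Of the 8 choroid plexus markers, limma called 4 higher with PLX5622 (median 0.413) and edgeR and DESeq2 1 each, and their sum was 69.5 to 1196 TPM in control and 149 to 1280 TPM in PLX5622 mice. Their part in the values of Rbm3 and Hspb1 was not tested.

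Finally, the daily course itself was compared between diets with an interaction of diet and a 24 h cosine. None of the 9 genes was called (limma, adjusted p = 0.999986 for each, unadjusted p from 0.111 for Hsf1 to 0.715 for Hspb1), and edgeR and DESeq2 called 0 as well. With 0 genes at an unadjusted p under 0.05, the members stood beside 0.0% called among all genes, of which 669 had an unadjusted p under 0.05. The fitted peak of Cirbp was 0.624 ± 0.735 h (SE) earlier with PLX5622 and that of Hspa1b 1.63 ± 1.26 h later. The peak of Rbm3 was 0.122 ± 0.469 h later, given as a description.

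The wider pathway was described from gene lists. The counts and shares of all genes given above for each test and tool also apply to these lists. Of 34 further cytosolic and mitochondrial chaperones and co-chaperones, 33 passed the filter of a mean of 1 TPM. Their median dark minus light difference was 0.122 in control and 0.0743 in PLX5622 mice, with 26 of 33 higher in the dark in both. Hspa2, an HSP70 known from the testis, was the 1 gene called, higher in the dark in PLX5622 mice by 0.32 ± 0.076 (limma, adjusted p = 0.0473), with 0.17 in control mice (adjusted p = 0.511). In control mice limma called 0 of 33, with 12 at an unadjusted p under 0.05 and 2 called by edgeR and by DESeq2. The largest difference there was that of Chordc1, an HSP90 co-chaperone, at 0.52 ± 0.139 (adjusted p = 0.105), followed by Hspb2, a muscle-type small heat-shock protein, at 0.44 ± 0.190 (adjusted p = 0.458). With the diet, 24 of 33 were higher (median 0.0317) and none was called, with 3 at an unadjusted p under 0.05 and 1 called by edgeR and by DESeq2. Chordc1 had 0.20 ± 0.093 (adjusted p = 0.268) and Cacybp 0.13 ± 0.044 (adjusted p = 0.0887). Among the other heat-shock factors and their regulators, Hsf2, Hsf4 and the HSF1-binding Hsbp1 passed the filter. None of these 3 was called by limma in any comparison, with differences of -0.08 to 0.11, 1 at an unadjusted p under 0.05 in PLX5622 mice for dark against light, and 1 called by edgeR and by DESeq2 for diet.

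The chaperones of the endoplasmic reticulum serve secreted and membrane proteins and answer mainly to the unfolded protein response rather than to HSF1. In both diets 15 of 15 had a higher mean in the dark, with medians of 0.160 and 0.149. None was called by limma in either diet, with 4 and 5 at an unadjusted p under 0.05, 4 and 2 called by edgeR and 4 and 3 by DESeq2. Hspa5, the central HSP70 of this compartment, had differences of 0.32 ± 0.109 and 0.34 ± 0.106 (adjusted p = 0.246 and 0.183), and Pdia4, a disulfide isomerase, had 0.31 ± 0.083 in PLX5622 mice (adjusted p = 0.0928). Sdf2l1, a cofactor of Hspa5, had 0.32 ± 0.094 in control mice (adjusted p = 0.161) and was called rhythmic in PLX5622 mice by JTK_CYCLE (adjusted p = 0.0371), the 1 of 15 so called against 0.61% of all genes. The limma cosine called 2 there, Sdf2l1 and Hspa5 (adjusted p = 0.0111 and 0.0255), 9 had an unadjusted p under 0.05 by JTK_CYCLE, and edgeR and DESeq2 called 9 each. In control mice JTK_CYCLE called 0, with 3 at an unadjusted p under 0.05, and edgeR called 4 and DESeq2 5. With the diet 12 of 15 were higher and none was called, with 2 at an unadjusted p under 0.05 and 1 called by edgeR and by DESeq2. The largest difference was that of Hspa13, at 0.18 ± 0.065 (adjusted p = 0.126).

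The splicing kinases of the CLK family and their SR protein substrates respond to small changes in body temperature, and 13 of them were tested. Srsf10, a splicing repressor that heat shock dephosphorylates, was higher in the dark in control mice by 0.34 ± 0.071 (limma, adjusted p = 0.0152) and had 0.19 in PLX5622 mice (adjusted p = 0.281). Srsf5 had differences of -0.33 ± 0.082 and -0.31 ± 0.080 that were not called (adjusted p = 0.0656 and 0.0774). By JTK_CYCLE, 2 of 13 were called in PLX5622 mice, Srsf5 (adjusted p = 0.0371) and Tra2a (adjusted p = 0.0492), against 0.61% of all genes, and 0 in control mice, where 3 had an unadjusted p under 0.05 and edgeR and DESeq2 called 2 each. The means of Srsf5 were 189 and 187 TPM at ZT6 and ZT10 and 126 and 123 TPM at ZT14 and ZT18 in control mice. In PLX5622 mice they were 181 and 184 TPM against 144 and 120 TPM. Of the 6 genes linked to RBM3 or CIRBP action, among them Rtn3, a reticulon whose translation RBM3 raises, and Ntrk2, the TrkB receptor upstream of RBM3, none was called by limma in any comparison or had an unadjusted p under 0.05, and edgeR and DESeq2 each called 1 as rhythmic in PLX5622 mice.

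Among clock genes used as a reference, Dbp, an output gene of the clock, and Arntl, which encodes BMAL1, were called rhythmic by JTK_CYCLE in control mice (adjusted p = 0.0431 and 0.0218) and in PLX5622 mice (adjusted p = 0.00281 and 0.00619). Nr1d1, a repressor of Arntl, was called by JTK_CYCLE in PLX5622 mice (adjusted p = 0.0120) and not in control mice (adjusted p = 0.0833). Per2 was called by JTK_CYCLE in neither (adjusted p = 0.163 in PLX5622 and 0.580 in control mice). Other tests called more of these 4 genes. The limma cosine called 3 in control and 4 in PLX5622 mice, Per2 among the latter. Both edgeR and DESeq2 called 4 of 4 as rhythmic in each diet. The gene most like Rbm3 across the 47 libraries in log2(TPM + 1) was Ciart, a repressor of the clock, with Pearson r = 0.892. Dbp (0.867), Inmt (0.809), Nr1d2 (0.802) and Usp2 (0.798) followed. The genes most like Cirbp were Haghl (0.905), Hnrnpdl (0.884), Pla2g4e (0.846), Klhdc9 (0.814) and Armcx5 (0.808), with none in common with the 5 of Rbm3. Those most like Hsph1 were Dnaja1 (0.893), Hyou1 (0.862), Hspa4 (0.859), Fkbp4 (0.856) and Hspa8 (0.855), all of them chaperones or co-chaperones. These coefficients describe the 47 libraries, which share times of day, the scale of TPM and possibly harvest sessions.

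The cold-inducible and the heat-shock genes were then set against each other mouse by mouse. Rbm3 and Cirbp covaried over the libraries, with Pearson r = 0.74 and Spearman rho = 0.727 in the 23 control mice, given as a description, and r = 0.72 and rho = 0.750 in the 24 PLX5622 mice (permutation p = 0.00011 for r, adjusted p = 0.00099 over 18 relations). Without the 2 libraries farthest from the median of Rbm3, r was 0.697 and 0.665. Much of this joint course is that of the 6 times, and once the mean of each group was removed, r was 0.35 in control mice (permutation p = 0.076, adjusted p = 0.171) and 0.73 in PLX5622 mice (permutation p = 0.00022, adjusted p = 0.00198). Between Rbm3 and the heat-shock genes, r over all times was -0.35 to 0.34 in control mice, as a description, and -0.46 to 0.15 in PLX5622 mice, where none of the 8 relations passed.

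Within groups of PLX5622 mice, Rbm3 in TPM was correlated with 6 heat-shock genes. The coefficients were 0.72 for Hsp90aa1, 0.62 for Hspa1a, 0.59 for Hsph1, 0.58 for Hspa8 and Dnajb1 and 0.54 for Hspa1b, with permutation p adjusted over 18 relations between 0.00198 and 0.0473, but 0.04 for Hspb1 and -0.05 for Hsf1. In control mice none passed, with coefficients of 0.03 to 0.35 including that of Cirbp. The relation depended on the table. On an FPKM scale computed from the deposited counts and exon lengths, the coefficients with heat-shock genes within groups of PLX5622 mice were -0.17 to 0.12, and none passed. On that scale Rbm3 and Cirbp had r = 0.57 within groups (adjusted p = 0.101 by permutation). On it the relation to Cirbp and 3 relations to heat-shock genes passed over all times in PLX5622 mice, with r = 0.68 for Cirbp, -0.64 for Hspa8, -0.61 for Hsph1 and -0.51 for Hsf1.

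**Figure D5:**
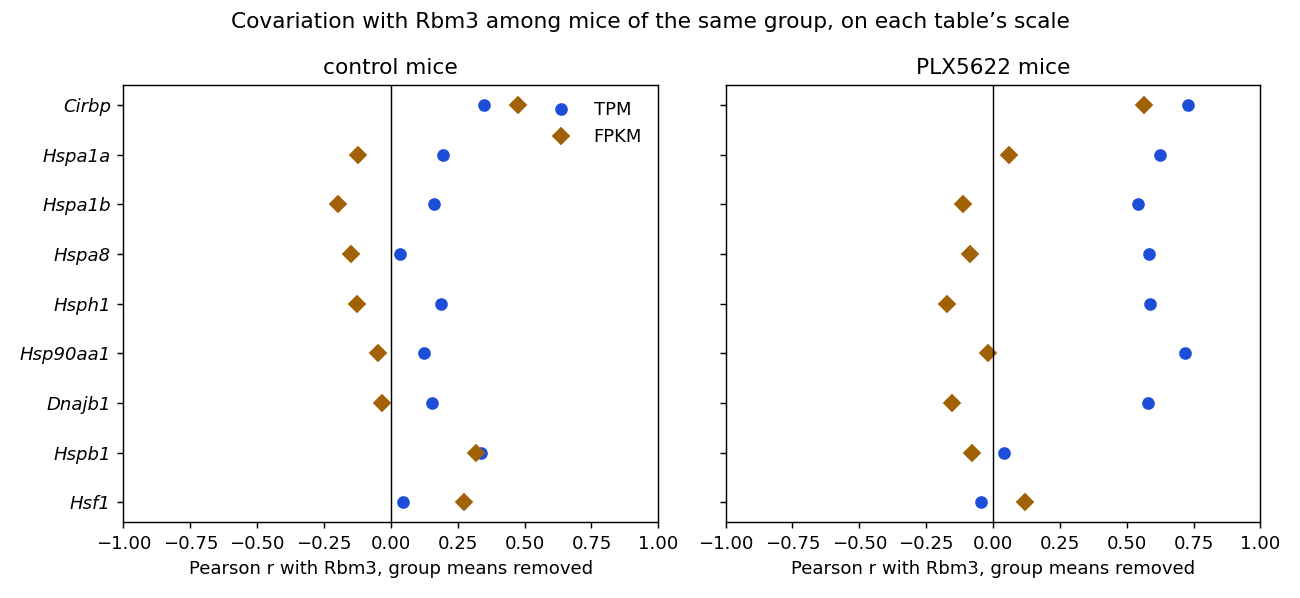
Pearson r with Rbm3 within groups (horizontal axis, group means removed) for each of the other 9 genes, in control mice (left, n = 23) and PLX5622 mice (right, n = 24), on the TPM scale and on the FPKM scale. In PLX5622 mice the heat-shock genes lie at up to 0.72 on the TPM scale and between -0.17 and 0.12 on the FPKM scale.

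For Cirbp the same relations were computed after seeing the data. Over all times Hspb1 had the most negative coefficients, with r = -0.54 in control and -0.51 in PLX5622 mice (adjusted p = 0.0876 over 16 relations by permutation in both) and rho = -0.575 in both (adjusted p = 0.0387). Within groups of PLX5622 mice Cirbp in TPM had coefficients of 0.72 with Hsp90aa1, 0.69 with Hsph1, 0.61 with Hspa1a and Hspa8 and 0.59 with Dnajb1, all of which passed. Those with Hspa1b (0.53, adjusted p = 0.0523 by permutation), Hspb1 (-0.06) and Hsf1 (-0.08) did not pass. In control mice none passed within groups, with coefficients of 0.05 to 0.45. These relations of Cirbp were not computed on the FPKM scale, on which those of Rbm3 with heat-shock genes did not pass within groups. Among the 7 chaperone genes, r over the 47 libraries ranged from 0.195 for Hsp90aa1 and Hspb1 to 0.881 for Hspa8 and Hsp90aa1, with 0.738 for Rbm3 and Cirbp on the same measure, while Hsf1 had -0.03 to 0.22 with the other heat-shock genes.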

How the data were processed

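Cortical RNA-seq of 47 mice in 12 groups was analysed from the authors' tables, with no read mapped again. The deposited TPM were made by the authors with Salmon and STAR on GRCm38.p6 with Gencode transcripts. A second table, named FPKM, was found to hold whole-number counts per gene as deposited, and the labels name STAR, featureCounts, edgeR and limma on mm10 without a role. Of the gene identifiers, 99.68% of the TPM table and 99.77% of the count table were found in GENCODE M21, and every sample column was used. FPKM were computed here from the counts and M21 exon lengths. The control and PLX5622 groups were taken from the labels, and the 69 pairs of libraries within groups all differed by more than sampling noise.

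The 10 genes, the gene lists and the tests were chosen with earlier results of these data known. Tests were run in R 4.3.3 with limma 3.58.1, on log2(TPM + 1), over the 14580 genes whose mean reached 1 TPM. They covered diet with a 24 h cosine, the interaction of diet and cosine, and dark minus light per diet in a model of the 12 groups. JTK_CYCLE was rewritten in Python 3.11.15 with SciPy 1.17.1, for waves of 24 h. P-values of these tests were adjusted over all genes by Benjamini-Hochberg, and those of correlations over the relations of a family, with a threshold of 0.05, and tests across genes were checked on simulated data. Correlations used 100000 permutations. edgeR 4.0.16, DESeq2 1.42.0, other filters, scalings and covariates were alternatives. The covariates that the study took from sequencing metrics were not used here. Depth was 16597987 to 27626161 counts per library, so a level of a few TPM rests on few counts. Named were all 10 genes, up to 4 called genes with the smallest p per list and test or, with none called, the 2 with the largest change (not all of which are printed), and the 5 genes most correlated with Rbm3, Cirbp and Hsph1.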

Additional observations from a re-analysis of the deposited data

Results flagged for a closer look

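Each of the 10 genes in each of the 11 groups of 4 libraries was searched for a library far from the other 3 by Dixon's gap ratio, and 8 of 110 groups had one, where chance gives about 5.5. Rbm3 stood at 148.1 TPM in control ZT18 replicate 2, against 127.6 to 129.8 TPM in the others. Cirbp stood at 100.4 TPM in PLX5622 ZT22 replicate 3, against 74.3 to 76.9 TPM. Hspa1a was low in control ZT10 replicate 1, at 3.19 TPM against 4.64 to 4.82 TPM. Hsph1 was low in PLX5622 ZT2 replicate 1, at 67.1 TPM against 88.0 to 92.0 TPM, and in PLX5622 ZT6 replicate 1, at 50.8 TPM against 67.4 to 70.7 TPM. Dnajb1 was high in PLX5622 ZT18 replicate 4, at 33.1 TPM against 21.3 to 22.7 TPM. Hsf1 was high in control ZT2 replicate 3, at 24 TPM against 21.3 to 21.6 TPM, and in PLX5622 ZT10 replicate 4, at 21.3 TPM against 17.9 to 18.4 TPM. Control ZT14 held 3 libraries and was not searched.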

How the results depend on the processing

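Cirbp and Hspa1b kept their dark minus light calls and directions in both diets under every alternative run. The number of members called moved elsewhere, and the cause was not tested. For diet it went from 0 to 2 with 3 residual principal components, 1 with DESeq2 and 1 with ZT as a factor. For rhythm in control mice it went from 0 to 1 with median-of-ratios scaling, 1 with periods of 20 and 24 h, 1 with the limma cosine, 3 with ZT as a factor, 3 with edgeR and 3 with DESeq2. For rhythm in PLX5622 mice it went from 2 to 1 with no filter on low values, 4 with ZT as a factor, 4 with edgeR and 6 with DESeq2. For difference in rhythm it went from 0 to 1 with the principal components. For dark minus light it went from 2 to 4 in control and 4 in PLX5622 mice with median-of-ratios scaling, 8 and 6 with the principal components, and 4 and 4 with DESeq2, and to 4 in PLX5622 mice with edgeR. The uncalled diet differences near 0 changed sign for Hspa1a with median-of-ratios scaling (-0.0103), edgeR (-0.103), DESeq2 (-0.101), log2 total count as a covariate (-0.0491) and ZT as a factor (-0.00398), and for Dnajb1 (0.00232) and Hsph1 (0.00644) without both control ZT14 replicate 3 and PLX5622 ZT18 replicate 4, where Hspa1a had 0.0415 and Hsf1 -0.0126.

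Leaving out 1 library at a time gave 0 members called for diet and for difference in rhythm, 0 to 1 for rhythm in control mice (1 without control ZT22 replicate 1 or replicate 4), 1 to 3 for rhythm in PLX5622 mice, 2 to 4 for dark minus light in control mice (4 without control ZT2 replicate 4) and 2 to 3 in PLX5622 mice. Over these fits the diet difference ranged from -0.0265 to 0.0645 for Hspa1a, from -0.0307 to 0.0219 for Hsph1, from -0.0407 to 0.0138 for Dnajb1 and from -0.0266 to 0.00551 for Hsf1. Where the sign differed from that of all libraries, the values lay between -0.0265 and -0.00179 for Hspa1a, 0.000878 and 0.0219 for Hsph1, and 0.000573 and 0.0138 for Dnajb1.

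The labels do not say that a replicate number marks anything shared. Deviations from the group means correlated by 0.0512 on average over 253 pairs of libraries with the same number, not in every pair (lowest -0.247), and by -0.0171 for other pairs, and 24 of 47 libraries were closest to one of their own number, a hint from the data of something shared, so pairing remains unsettled. With the replicate number as a block, 5 members were called for dark minus light in control mice and 4 in PLX5622 mice, and 2 for the cosine in control mice. Those added to Cirbp and Hspa1b were Hspa1a, Hsph1 and Dnajb1 in control mice (adjusted p = 0.0304, 0.0271 and 0.0036) and Hspa1a and Hspb1 in PLX5622 mice (adjusted p = 0.0158 and 0.0467). Over all genes the counts moved by more than 1.5 times as follows. For diet 503 became 298 with a minimum of 5 TPM, 2558 with the principal components, 1022 with edgeR and 1155 with DESeq2. For rhythm in control mice 11 became 0 with no filter and between 29 and 818 under the other alternatives, except a minimum of 5 TPM, which gave 9. In PLX5622 mice 89 became 43 with no filter and up to 765 with DESeq2. For dark minus light 44 became up to 1113 in control mice and 50 became up to 1544 in PLX5622 mice, both with the principal components, and 29 in PLX5622 mice with no filter. Difference in rhythm went from 0 to 237 with the principal components. Leaving out 1 library gave 29 to 83 and 28 to 67 genes for dark minus light in control and PLX5622 mice, 0 to 18 and 38 to 114 for rhythm, and 429 to 635 for diet. Hspa1a, Hspa1b and Hspb1 rest on the fewest counts of the 10 genes, with the lowest library at 48, 52 and 94.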
